A study of Mus musculus with 5 samples.

Results

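The genes described here encode the proteasome, its regulators and its assembly factors. They were defined by name, as the protein-coding genes of the mouse assembly GRCm38 whose symbol begins with Psma, Psmb, Psmc, Psmd, Psme, Psmf or Psmg followed by a number. The genes were chosen with earlier results of these data known. The rule found 51 of 21887 protein-coding genes: 16 of the core particle, 30 regulatory genes, 3 of the immunoproteasome (Psmb8, Psmb9 and Psmb10) and 2 whose products are named for binding a proteasome protein (Psmc3ip, a meiotic recombination factor, and Psme3ip1). H3K27ac, the acetylated form of histone H3 found at active promoters and enhancers, was profiled by ChIPmentation, in which Tn5 transposase adds sequencing adapters to immunoprecipitated chromatin. The cells came from mouse bone marrow, were sorted as CD45.2+, lineage-negative, Sca1+ and Kit+, and carry the label HSC/MPP, that is, haematopoietic stem cells and multipotent progenitors. All 4 H3K27ac libraries and the 1 input library had the genotype Mll3/4 deleted. How and in which cells the deletion was made, the strain and the age were not given in the sources used here.

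The authors deposited 1 list of 22948 peaks for the 4 H3K27ac libraries together. Each peak has a position, a signal value (read as the enrichment of H3K27ac reads over background), a p-value and a q-value, all the authors' own. The list has no value of a single library and no control genotype, so there is no replicate error, no test between groups and no measure of gain or loss. Read depth was not given. Differences between genes are therefore described here without a test. A gene without a peak is one where no peak passed the authors' calling, which does not show that the mark was absent.

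The proteasome is the protease complex that degrades ubiquitin-tagged proteins. Its barrel-shaped core is built from rings of alpha subunits (Psma genes), which gate the entry, and rings of beta subunits (Psmb genes), some of which cut peptide bonds. The 19S regulatory particle sits on the barrel: its ATPases (Psmc genes) unfold the substrate, and its other subunits (most Psmd genes) include those that bind or remove ubiquitin. In immune cells and after interferon exposure the catalytic subunits Psmb6, Psmb7 and Psmb5 can be replaced by Psmb9, Psmb10 and Psmb8, which shifts the peptides made towards those that MHC class I molecules present. Most of these genes are used in every cell, and several subunit genes are known targets of the transcription factor Nfe2l1.

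Promoter sequences were taken from RefSeq for GRCm38.p6, from 250 bases before to 50 bases after each listed start, on the strand of the gene and written 5′ to 3′. Of the 51 genes, 43 had at least 1 listed start. The first set is shown for the content of CpG dinucleotides, which is high in promoters of many widely used genes. It holds the 3 immunoproteasome promoters and that of the 19S ATPase gene Psmc4, which had the highest ratio of observed to expected CG dinucleotides of the 43 genes, though not the highest number of them. Capitals mark each CG. The promoter of Psmb9 lies at chr17:34187281-34187580 (minus strand), that of Psmb8 at chr17:34197945-34198244 (plus strand), that of Psmb10 at chr8:105938343-105938642 (minus strand) and that of Psmc4 at chr7:28050043-28050342 (minus strand).
Psmb10: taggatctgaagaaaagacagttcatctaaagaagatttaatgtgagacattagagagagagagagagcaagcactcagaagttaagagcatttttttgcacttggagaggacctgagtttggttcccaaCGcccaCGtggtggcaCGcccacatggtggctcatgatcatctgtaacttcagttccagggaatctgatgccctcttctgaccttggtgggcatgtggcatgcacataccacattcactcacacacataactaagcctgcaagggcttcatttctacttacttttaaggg
Psmb8: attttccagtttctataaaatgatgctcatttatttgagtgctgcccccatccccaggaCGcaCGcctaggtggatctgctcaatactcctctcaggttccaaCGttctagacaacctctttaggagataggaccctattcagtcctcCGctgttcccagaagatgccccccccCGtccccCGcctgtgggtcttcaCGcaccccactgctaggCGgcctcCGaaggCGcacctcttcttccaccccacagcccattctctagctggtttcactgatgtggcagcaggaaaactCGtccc
Psmb9: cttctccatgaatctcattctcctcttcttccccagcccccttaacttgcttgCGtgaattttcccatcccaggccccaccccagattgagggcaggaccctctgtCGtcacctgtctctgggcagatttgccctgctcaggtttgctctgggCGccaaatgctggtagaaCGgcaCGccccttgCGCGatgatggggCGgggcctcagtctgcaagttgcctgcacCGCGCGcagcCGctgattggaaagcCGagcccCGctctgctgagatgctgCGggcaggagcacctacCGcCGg
Psmc4: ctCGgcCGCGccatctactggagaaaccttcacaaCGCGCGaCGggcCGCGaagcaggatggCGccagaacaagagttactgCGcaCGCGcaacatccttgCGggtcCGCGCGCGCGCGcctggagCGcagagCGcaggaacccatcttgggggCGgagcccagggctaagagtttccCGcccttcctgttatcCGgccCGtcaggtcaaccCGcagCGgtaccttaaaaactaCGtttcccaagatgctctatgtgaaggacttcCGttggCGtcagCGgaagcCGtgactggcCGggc

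These 300 bases held 3 CG dinucleotides at Psmb10, 11 at Psmb8, 17 at Psmb9 and 34 at Psmc4. Psmb9 had more of them than some promoters classed as CpG-rich, such as those of Psmb6 and Psmd8 with 15 each. The second set is shown for the core of the binding motif of ETS factors, the letters CCGGAAG on either strand, which was found more often in promoters of regulatory genes than in those of the core particle. Capitals mark each match. Psme3, at chr11:101315963-101316262 (plus strand), and Psmd6, at chr14:14120896-14121195 (minus strand), had strong peaks. Psmd2, at chr16:20651402-20651701 (plus strand), had none. Some genes with a match that are not shown had weak peaks, such as Psmg3 with a signal value of 2.69 and Psmd4 with 2.97.
Psmd2: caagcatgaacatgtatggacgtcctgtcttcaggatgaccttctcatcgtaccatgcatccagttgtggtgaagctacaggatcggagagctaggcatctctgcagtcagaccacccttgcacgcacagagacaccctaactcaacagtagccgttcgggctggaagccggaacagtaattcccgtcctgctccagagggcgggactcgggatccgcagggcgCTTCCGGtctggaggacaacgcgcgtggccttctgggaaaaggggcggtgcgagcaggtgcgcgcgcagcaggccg
Psmd6: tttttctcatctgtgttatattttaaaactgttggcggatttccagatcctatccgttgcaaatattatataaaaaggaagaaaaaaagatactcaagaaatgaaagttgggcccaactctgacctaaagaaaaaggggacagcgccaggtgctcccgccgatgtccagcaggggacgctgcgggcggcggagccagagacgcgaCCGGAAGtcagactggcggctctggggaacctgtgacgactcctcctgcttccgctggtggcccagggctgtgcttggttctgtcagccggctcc
Psme3: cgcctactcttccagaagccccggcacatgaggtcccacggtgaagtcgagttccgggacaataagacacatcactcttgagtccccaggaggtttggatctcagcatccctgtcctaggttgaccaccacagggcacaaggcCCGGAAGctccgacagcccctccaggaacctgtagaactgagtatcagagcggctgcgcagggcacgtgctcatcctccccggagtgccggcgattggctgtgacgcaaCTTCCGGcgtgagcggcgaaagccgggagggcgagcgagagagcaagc

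H3K27ac peaks lay at most proteasome genes. A gene was counted when any base of a peak fell within 1 kb of either end of it. This held for 42 of the 51 genes (82.4%), against 36.2% of all protein-coding genes, and without the 2 binding proteins for 41 of 49. The count was 13 of 16 for the core particle, 25 of 30 for the regulatory genes and 3 of 3 for the immunoproteasome. In all, 51 different peaks lay at these ends: 34 genes had 1 peak, 7 had 2 and Psmb8 had 3.

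The strength of these peaks was ordinary. Taking the strongest peak of each gene, the median signal value was 4.96 over the 42 genes (interquartile range 3.69 to 6.19), against 4.71 (3.52 to 6.55) over the 7929 protein-coding genes with a peak at an end. Of the 42 genes, 26 lay above the median of all genes with a peak, 7 above and 10 below their interquartile range, and 0 above their 90th percentile of 8.91. The proteasome genes thus had peaks often but not at the high end of the scale. The direction of the difference in medians depended on the list: once peaks under a signal value of 4 were left out, it was 5.32 for the 30 proteasome genes that remained and 5.91 for all genes. The peaks were also somewhat narrower, with a median width of 910 bp against 1109 bp. Over the 42 genes, signal value and width rose together (Spearman's rho 0.56, against 0.72 over all genes with a peak), both being properties of the same peak.

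**Figure D1:**
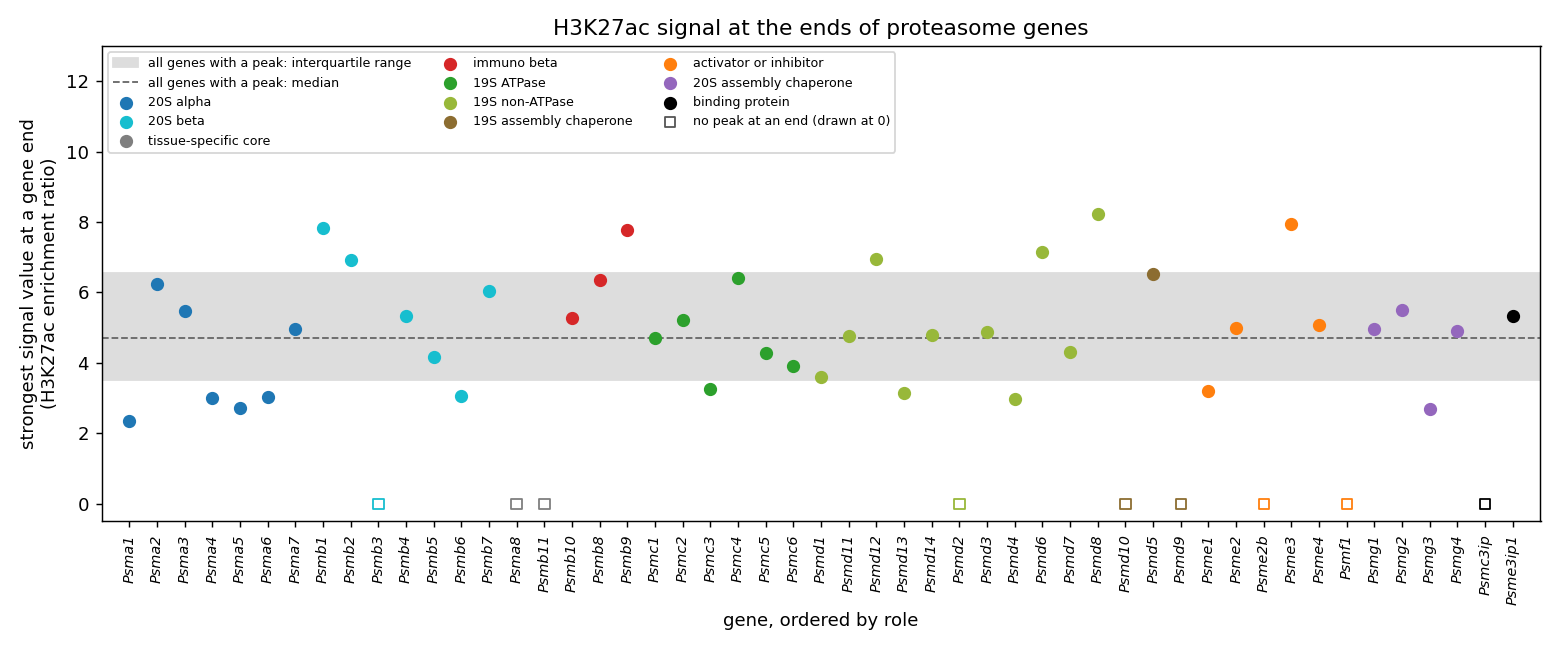
Strongest signal value (vertical axis, the authors' H3K27ac enrichment ratio) at an end of each of the 51 genes (horizontal axis, ordered and coloured by role); open squares at 0 stand for genes without a peak, the dashed line is the median of all protein-coding genes with a peak (4.71) and the grey band their interquartile range (3.52 to 6.55). The values run from 2.37 at Psma1 to 8.23 at Psmd8, and the 3 immunoproteasome genes lie between 5.27 and 7.77.

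The 7 alpha ring genes used in all cells, Psma1 to Psma7, each had a peak. As a group they were the weakest at their annotated ends. Signal values at an end were 6.24 at Psma2, 5.48 at Psma3, 4.96 at Psma7, 3.03 at Psma6, 3.00 at Psma4, 2.72 at Psma5 and 2.37 at Psma1. Among the strongest peaks of the 42 genes, that at Psma1 (chr7:114275467-114275927) was the weakest. It was also the only one of these with a q-value above 0.05, its −log10 q being 0.93. A second peak at Psmb10 was weaker still, with a signal value of 2.33 and a −log10 q of 0.8. The median over the 7 genes was 3.03. At Psma3 and Psma6 the strongest peak at a gene end was not the one at a listed start. A peak with a signal value of 7.93 (chr12:70974632-70976164) began just downstream of the listed start of Psma3, which lies inside the annotated gene. At Psma6, a peak with a signal value of 5.45 (chr12:55397776-55399869) covered the second listed start, whereas the one at a gene end, with 3.03, lay at the end away from both starts. Counted at listed starts, the median over the 7 alpha genes was 4.96, so the low level of this group held only for annotated gene ends.

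Of the beta ring genes used in all cells, 6 of 7 had a peak. The strongest was at Psmb1 (chr17:15496835-15498631, signal value 7.84), followed by Psmb2 (6.92), Psmb7 (6.03), Psmb4 (5.32), Psmb5 (4.16) and Psmb6 (3.06). Psmb5, Psmb6 and Psmb7 encode the catalytic subunits, so these ranged from 3.06 to 6.03. Psmb3, a structural beta subunit, had none, the nearest peak lying 18510 bp from an end. The tissue-restricted core genes had none either: Psma8, the alpha subunit of the testis proteasome, lay 20181 bp from the nearest peak. Psmb11, the catalytic subunit of the thymus, lay 6859 bp from the nearest one, although it lies only 7315 bp from Psmb5.

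All 3 immunoproteasome genes had a peak above the median of all genes. Psmb9 had a signal value of 7.77 (chr17:34183920-34188611), Psmb8 one of 6.37 (chr17:34197783-34200146) and Psmb10 one of 5.27 (chr8:105937176-105938587), with −log10 q of 22.5, 15.4 and 12.8. Set beside the constitutive subunit each one replaces, the value was 7.77 at Psmb9 against 3.06 at Psmb6, 6.37 at Psmb8 against 4.16 at Psmb5, and 5.27 at Psmb10 against 6.03 at Psmb7. The inducible subunit was thus the higher in 2 of the 3 pairs. However, the peaks of all 3 inducible genes also lay within 1 kb of an end of Tap1 or Lcat. Those of Psmb5, Psmb6 and Psmb7 lay at no other protein-coding gene's end. The inducible values can therefore not be given to the subunit genes alone. The median over the 3 genes was 6.37, against 4.96 over the 13 core genes with a peak and 4.86 over the 25 regulatory ones. The groups overlapped: 6 core and 7 regulatory genes lay above Psmb10, and 1 core gene and 2 regulatory genes lay above Psmb9. With 3 genes, of which Psmb9 and Psmb8 lie in 1 locus, no test of this difference was made.

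The strongest peak of each immunoproteasome gene also reached an end of a neighbouring gene, meaning, here and below, the 1 kb either side of it. Widths were 4692 bp at Psmb9, the widest of all 42 genes, 2364 bp at Psmb8 and 1412 bp at Psmb10, where the interquartile range was 685 to 1781 bp over all genes with a peak. Psmb9 and Psmb8 flank Tap1, which encodes a subunit of the transporter that carries peptides into the endoplasmic reticulum for MHC class I. The starts of Psmb9 and Tap1 lie 226 bp apart on opposite strands, and 1 peak covered both. Its summit was 1056 bp from the start of Psmb9, on the side of Tap1, so by summit alone Psmb9 fell just outside the 1 kb window. Tap1 ends 970 bp before Psmb8 begins, and the peak at the start of Psmb8 reached the window at that end of Tap1. With genes this close, any peak covering the start of Psmb9 or Psmb8 counts as shared with Tap1. Psmb8 had 2 further weak peaks towards its other end, with signal values of 2.59 and 2.61, and was the only one of the 42 genes with peaks at both ends, against 8.12% of all genes with a peak. At Psmb10 the neighbour was Lcat, a plasma enzyme of cholesterol metabolism. Without peaks that reached an end of another protein-coding gene, 1 of 3 immunoproteasome genes (Psmb8, through its weak peaks) still had a peak.

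**Figure D2:**
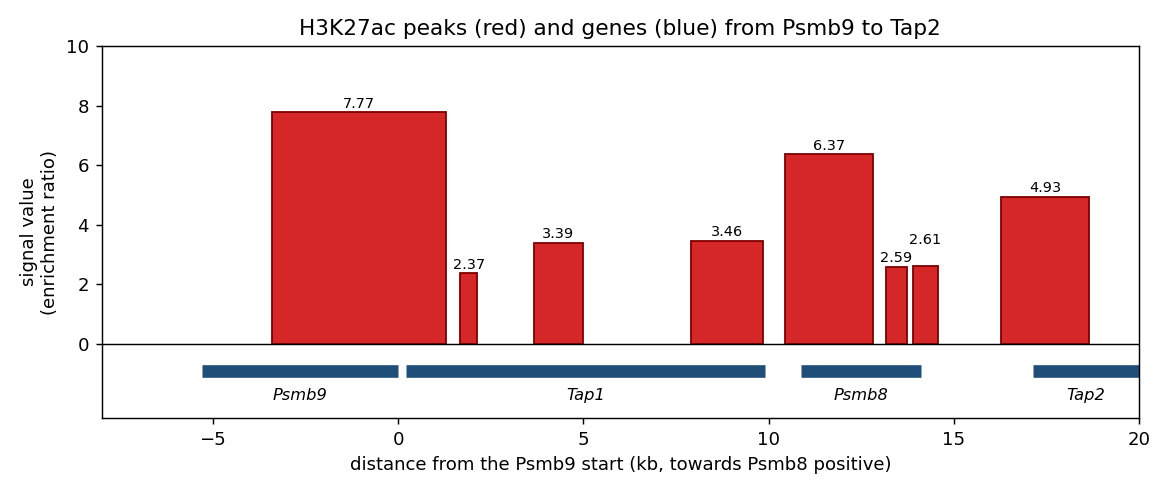
H3K27ac peaks (red bars, height the signal value, width to scale) and protein-coding genes (blue) around Psmb9, Tap1, Psmb8 and Tap2; the horizontal axis is the distance in kb from the start of Psmb9, and Tap2 runs past the right edge. The strongest peaks are that of 7.77, which covers the starts of Psmb9 and Tap1, and that of 6.37, which covers the start of Psmb8.

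In the base of the 19S particle, all 6 ATPase genes had a peak. Psmc4 was the strongest with a signal value of 6.40 (chr7:28049349-28050092), followed by Psmc2 with 5.23, Psmc1 with 4.70, Psmc5 with 4.28, Psmc6 with 3.92 and Psmc3 with 3.27. The peak at Psmc2 was 3484 bp wide, covered both listed starts and also reached an end of Dnajc2, a ribosome-associated chaperone gene. The ATPases form a single ring. The interquartile range of their signal values was 4.01 to 5.10, against 3.52 to 6.55 over all genes with a peak.

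The other 19S subunits had a peak at 10 of 11 genes, among them the strongest of all. Psmd8, a subunit of the lid, had a signal value of 8.23 (chr7:29179034-29180460) and a second, weak peak of 2.65 upstream of its start. The lid subunits Psmd6 and Psmd12 had 7.16 (chr14:14119877-14120948) and 6.95 (chr11:107479542-107480428). Psmd14, the deubiquitinase of the lid, had 4.80. At the low end were Psmd1 with 3.61, Psmd13 with 3.15 and Psmd4, a ubiquitin receptor, with 2.97 in a peak of 266 bp, the narrowest among the strongest peaks of the 42 genes. Psmd2, a scaffold subunit that binds ubiquitin-like proteins, was the exception: the nearest peak lay 9852 bp from its ends. Psmd3, Psmd7 and Psmd11 had signal values from 4.31 to 4.86.

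Of the 3 genes for assembly of the 19S particle, 1 had a peak, against 36.2% of all protein-coding genes. Psmd5 had a signal value of 6.52 (chr2:34871015-34871854), whereas Psmd9 and Psmd10 had no peak, the nearest ones lying 63021 bp and 405330 bp away. Psmd10, also known as gankyrin, lies on the X chromosome, where 20.2% of genes were counted as having a peak, against 37.4% on the autosomes. The genes for assembly of the core, Psmg1 to Psmg4, all had a peak, with signal values of 4.96, 5.51, 2.69 and 4.90.

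Among activators and the inhibitor, Psme3, which encodes the nuclear activator PA28gamma, had the second highest signal value of all, 7.96 (chr11:101315578-101317787). Psme4, the PA200 activator, had 5.08. The interferon-inducible activator subunits Psme1 and Psme2, whose genes lie 5913 bp apart, differed: Psme2 had 4.99 and Psme1 had 3.21. Psme2b, a short gene related to Psme2, had none, with the nearest peak 18137 bp away. Psmf1, the inhibitor PI31, had no peak at an end, but a peak with a signal value of 4.38 (chr2:151740282-151742117) covered its listed start inside the annotated gene. Its edge lay 2082 bp from the nearest gene end, the closest miss of the 1 kb window. Taking the nearest peak of each gene counted, the largest gap was that of Psma5, 554 bp from the end. Of the binding proteins, Psme3ip1 had a signal value of 5.32 and Psmc3ip had none, with the nearest peak 3965 bp away. Counting listed starts beside gene ends raised the total from 42 to 43.

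None of the 3 immunoproteasome promoters was CpG-rich, although the classes overlapped in CpG content. A promoter was called CpG-rich when its ratio of observed to expected CG dinucleotides was at least 0.6 and its GC content at least 50%. Among proteasome genes with a listed start 30 of 43 were CpG-rich (69.8%), against 48.3% of all protein-coding genes with one. By class, 9 of 12 core genes, 19 of 26 regulatory genes and 0 of 3 immunoproteasome genes were. The ratios were 0.192 at Psmb10, 0.523 at Psmb8 and 0.5996 at Psmb9, the last just under the limit, which was chosen after the data were seen. Core and regulatory genes also had low ratios, such as 0.166 at Psmb11, 0.544 at Psmb4 and 0.508 at Psmd4. Psmc4 had 1.12, the highest of the 43.

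Peaks were more common at proteasome genes than over all genes in both promoter classes. A peak lay within 1 kb of a listed start in 36 of the 43 genes, against 38.0% of all. Among CpG-rich promoters this held for 27 of 30 proteasome genes, against 62.0% of all genes. Among the other promoters it held for 9 of 13, against 15.6%. The CpG-rich promoters without a peak were those of Psmb3, Psmd2 and Psmc3ip, and the other promoters without one were those of Psmb11, Psmd9, Psmd10 and Psme2b. The CpG ratios of Psmb3 and Psmd2 were 0.796 and 0.808. The 3 immunoproteasome genes were among the 9 genes with a peak and no CpG-rich promoter, together with Psma3, Psmb4, Psmc1, Psmd4, Psme1 and Psme2. Psmc1 missed the class on its GC content of 47.0% alone, its ratio being 0.966, and Psma3 missed it on both measures.

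**Figure D3:**
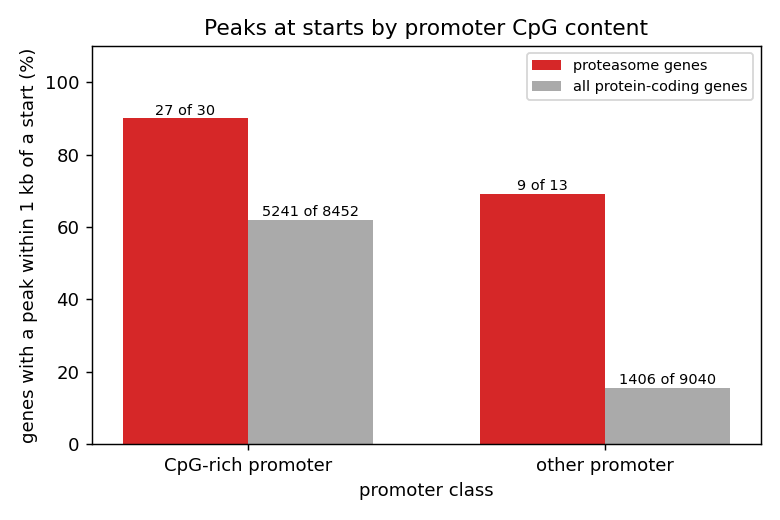
Share of genes with a peak within 1 kb of a listed start (vertical axis, percent) for CpG-rich and other promoters (horizontal axis), for proteasome genes (red) and all protein-coding genes (grey), with the counts above the bars. The proteasome bars stand above the grey ones in both classes, at 27 of 30 against 62.0% and 9 of 13 against 15.6%.

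Motifs were sought by their letters on both strands of the listed promoters, and a match describes the sequence and not a bound site. The ETS core CCGGAAG was found in 16 of 43 proteasome genes (37.2%), against 12.9% of all protein-coding genes. It was in 13 of 26 regulatory genes, 1 of 12 core genes (Psma6, with 3 matches at its second listed start), 0 of 3 immunoproteasome genes and both binding protein genes. CpG-rich promoters held it more often in general, in 21.4% of all genes, and in 14 of the 30 CpG-rich proteasome promoters. At Psmd6 it began 45 bases before the start, and at Psmd2, which had no peak, 26 bases before the start. Of the 16 proteasome genes with a match, 14 had a start peak. Over all genes, 70.2% of those with a match and 33.2% of those without had one, and CpG-rich promoters were 79.7% of the former and 43.7% of the latter.

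The antioxidant response element core TGACNNNGC, which Nfe2l1 and Nfe2l2 bind, was found in 6 of 43 genes (14.0%), against 14.8% of all. These were Psmb5, Psmb6, Psmc6, Psmd9, Psmd12 and Psme4. At Psmb5 it read TGACGTCGC and began 47 bases before the start. The CCAAT box, CCAAT, was in 16 of 43 genes (37.2%), against 42.3% of all, with 7 of 12 core genes and 6 of 26 regulatory genes among them. The GC box, GGGCGG, was in 24 of 43 genes, against 49.2%. The core of the interferon-stimulated response element, GAAA, any 2 bases, GAAA, was in 5 genes, against 3.94% of all: Psmb3, Psmd4, Psmd9, Psme1 and Psmg4. At Psme1 it lay on the opposite strand, reading TTTCGCTTTC along the gene, and began 9 bases after the start. The GAS element TTCNNNGAA, another interferon-responsive element, was in 3 genes, against 8.92%: Psmb8, where TTCCCAGAA began 97 bases before the start, Psmd2 and Psmg1. Matches of different motifs were counted separately where they overlapped, as those of the antioxidant element and the GC box did at Psmd9.

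Peaks at proteasome genes sat mainly downstream of the start. In 29 of the 36 genes with a peak at a listed start the summit of the strongest such peak lay downstream, against 69.6% of all genes with one. The median position was 312.5 bp downstream (interquartile range 193.5 to 481.5 bp), against 273 bp for all genes. The peak covered the start itself in 20 of the 36, against 52.1%. The summits upstream were at Psma6, Psmb9, Psmc2, Psmc5, Psmd5, Psmg1 and Psme3ip1. Psmb9, Psmc2, Psmc5, Psmg1 and Psme3ip1 are among the genes whose strongest peak also reached another gene's end. At 300 bp downstream a peak covered 91.7% of the 36 proteasome genes and 82.5% of all genes with a start peak. At 300 bp upstream it covered 50% and 51.0%. At 800 bp upstream the shares were 22.2% and 34.1%, at 2000 bp upstream 8.33% and 4.33%, and at 1500 bp downstream 13.9% and 20.7%. The order of the curves thus changed with distance, and 1 of the 36 genes is 2.78% on this scale.

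**Figure D4:**
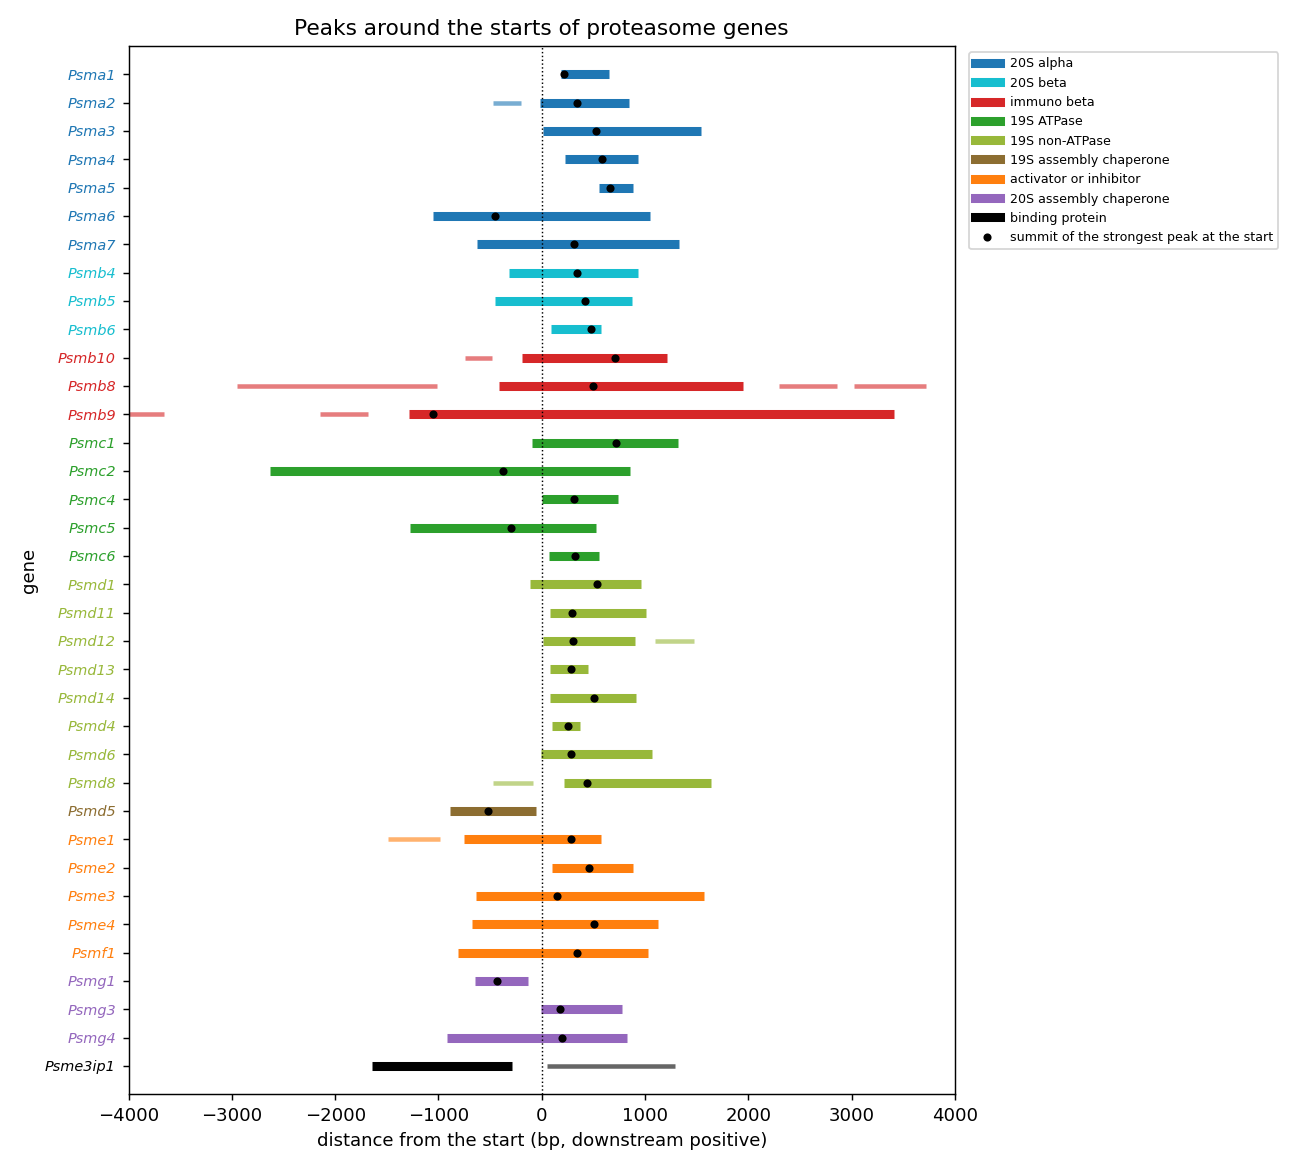
Peaks around the listed starts of the 36 proteasome genes with a peak there (vertical axis, ordered and coloured by role), by distance from the start in bp along the direction of transcription (horizontal axis); thick bars are the strongest peak at the start, thin bars other peaks, and dots the summits. The thick bars of 20 genes cross the start, 29 summits lie to its right and 7 to its left, and the bar of Psmb9 is the longest.

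**Figure D5:**
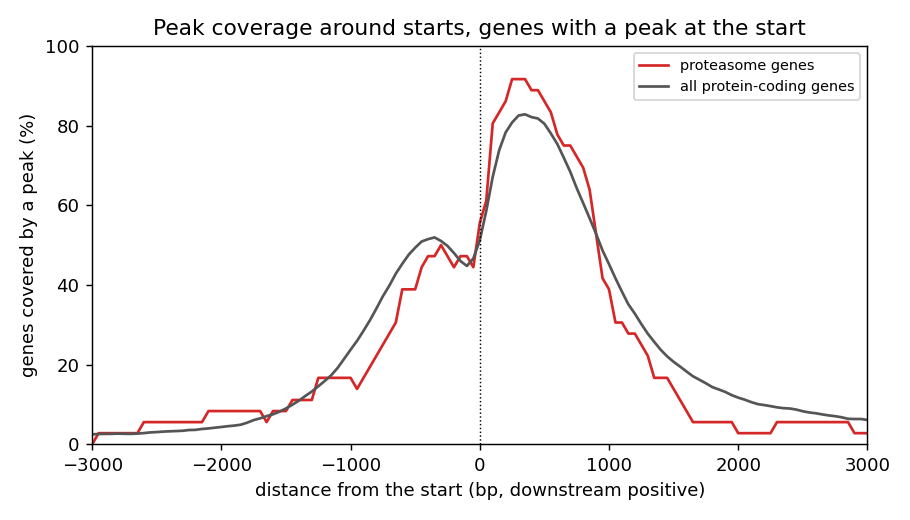
Share of genes covered by a peak (vertical axis, percent) by distance from the listed start in bp (horizontal axis, downstream positive), for the 36 proteasome genes (red) and all 6647 protein-coding genes (grey) with a peak at the start. Both curves are highest between 250 and 350 bp downstream, and at 300 bp they stand at 91.7% and 82.5%.

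Sharing of a peak with a neighbour was about as common as elsewhere: the strongest peak of 14 of the 42 genes also reached an end of another protein-coding gene, against 31.5% of all genes with a peak. It was so for 3 of 13 core genes (Psma2 with Mrpl32, Psma4 with AY074887 and Psma7 with Ss18l1) and for 7 of 25 regulatory genes. These were Psmc2 with Dnajc2, Psmc5 with Ftsj3, Psmd13 with Sirt3, Psme1 with Fitm1, Psme2 with Rnf31, Psmg1 with Brwd1 and Psmg2 with Cep76. It was so for all 3 immunoproteasome genes. A shared peak cannot be given to either gene.

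Distal peaks, with a summit more than 1 kb from every end of a protein-coding gene, were somewhat more common around proteasome genes than around all genes. At least 1 lay within 50 kb of an end of 33 of the 51 genes, against 44.0% of all. The median was 1 per gene, against 0, but with the 1 kb limit set to 0.5 kb both medians were 1, and with 2.5 kb or only the stronger peaks both were 0. Some of these peaks lay at listed starts inside a gene, among them those of Psma3, Psma6 and Psmf1. Without peaks at listed starts, at least 1 distal peak was left near 28 of the 51 genes, against 39.0% of all. With them, Psma6 had 8, Psmb8 had 6 and Psmb9 had 5, and the windows of the last pair overlap. Psma3, Psmc3 and Psmd6 had 4 each, and Psmb10 had 0. Over the 42 genes with a peak at an end, the number of distal peaks and the signal value had a Spearman's rho of 0.02.

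The other genes of the pathway had a higher median than the subunits. Of 30 genes for proteasome partners, ubiquitin carriers, ubiquitin itself and the control of subunit genes, 28 had a peak at an end, with a median signal value of 5.91. Among the strongest were Uchl5, a proteasome-bound deubiquitinase, with 9.34 and Uba6, a ubiquitin-activating enzyme, with 8.85. Ecpas, a proteasome adaptor, and Ubqln4, a ubiquitin shuttle, had no peak. All 4 genes of subunit gene control had one: Nfe2l2 with 7.84, Ngly1 with 6.55, Nfe2l1 with 4.71 and Ddi2 with 4.04. Of the genes that process antigen with the immunoproteasome, 13 of 13 had a peak, with a median of 6.24. The strongest were B2m, the light chain of MHC class I, with 14.9, H2-K1, a class I heavy chain, with 9.83 and Canx, a chaperone of class I folding, with 9.0. Irf1, which drives interferon-responsive genes, had 4.99.

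Genes of other large complexes were set beside the proteasome after the values were seen. Of 76 cytosolic ribosomal protein genes 72 had a peak at an end, with a median signal value of 6.09. Of 78 mitochondrial ribosomal protein genes 53 had one, with a median of 4.44. The proteasome genes lay between them in both measures, with 42 of 51 and 4.96.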

How the data were processed

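Peak positions, signal values, summits and q-values were used as the authors deposited them in 1 headerless list for the 4 H3K27ac libraries over the input. The submitters' processing notes name BWA, MACS2 and mm10. Versions, settings and the way replicates were combined were not given in the sources used here, and the list is named as an overlap set. The deposited signal value was read as a linear ratio, the enrichment (fold) of the H3K27ac pileup over background. The deposited q-values are on the −log10 scale. The deposited score and −log10 p-values were not analysed, and the summit is an offset from the peak start. None of these is a value of a library, so no depth, replicate error or test was available. How the pooling and the calling affected single peaks cannot be told apart from the list.

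Gene ends came from a RefSeq table of GRCm38.p6 (21887 protein-coding genes on assembled chromosomes), and starts, strands and sequences from a RefSeq promoter table with 43 of the 51 genes. Both share the coordinates of mm10. A listed start inside a gene counts at the start, not at an end. Overlaps were computed with Python 3.11.15, pandas 2.3.3 and numpy 2.4.6, and were tested on simulated peaks. Coordinates are 1-based. The genes, the lists, the motifs and the rule for names (all immunoproteasome genes, genes without a peak, the 10 strongest and 5 weakest, genes sharing a peak, and the 5 with most distal peaks) were chosen with earlier results of these data known. The CpG limits and the ribosomal genes were added after the data were seen, and all members could be named. Of the listed pathway genes, Paaf1 had no entry in the table, and some are counted but not reported by name here.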

Additional observations from a re-analysis of the deposited data

How the results depend on the processing

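Of 63 recomputed values, 56 stayed equal or within a factor of 1.5 of the reported value and 7 moved by more. The number of proteasome genes with a peak at an end ranged from 29 of 51, with peaks at another gene's end left out, to 43 with a 2.5 kb window, and its share was above that of all genes in each alternative run. In each of the stricter lists, limited to −log10 q from 5 or signal values from 4, the core count moved from 13 to 8 and the same 12 genes lost their peak. The immunoproteasome count moved from 3 to 1 when shared peaks were left out. The median number of distal peaks moved from 1 to 0 in both stricter lists and with a 2.5 kb limit, where all genes also had 0, and to 2 with 100 kb, where all genes had 1. The median signal value ranged from 4.80 to 5.32. It was above that of all genes except in the stricter lists, where all genes had 5.81 (by q) and 5.91 (by signal value). What caused these moves was not tested. The count with starts added to ends, 43, the distal peaks without those at starts and the split by CpG content were chosen after seeing the data. No paired analysis was possible because no replicate has a column of its own, and for the same reason no library could be left out. Depth is unknown, so the weakest peaks, such as that at Psma1, have no stated precision.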
